A study of Mus musculus with 21 samples.

Results

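Meiotic arrest of the mouse oocyte and its exchange with the surrounding granulosa cells were described through 9 genes, namely Gpr3, Adcy3, Pde3a, Gja4, Gja1, Npr2, Nppc, Kit and Kitl. They were chosen by name for their roles, and all 9 were found among the 55335 gene identifiers measured in each of the 21 RNA sequencing libraries. Oocytes gave 12 libraries and granulosa cells gave 9, from ovaries of ICR mice. Young mice were 6 to 8 weeks old and aged mice 18 months old, and the remaining groups were aged mice whose ovaries had received human umbilical cord mesenchymal stem cells under the capsule 3 weeks before. Those cells were either unsorted or sorted for high or low surface levels of the receptor LRP1, which gave the groups Aged + Unsorted, Aged + LRP1high and Aged + LRP1low. The oocyte groups held 3 Young, 2 Aged, 2 Aged + Unsorted, 3 Aged + LRP1high and 2 Aged + LRP1low libraries, and the granulosa cell groups held 1, 2, 1, 3 and 2 in the same order. Granulosa cells were stripped from cumulus-oocyte complexes with hyaluronidase and the zona was digested off the oocytes. The labels call the libraries biological replicates, and the number of mice or cells behind each library and the meiotic stage of the oocytes are not given in the sources used here.

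A fully grown oocyte waits in meiotic prophase because cAMP keeps its maturation kinase inactive. The receptor GPR3 in the oocyte membrane drives adenylyl cyclase, of which ADCY3 is one form, and the phosphodiesterase PDE3A would break the cAMP down. Cyclic GMP holds PDE3A back. It is made in granulosa cells by the receptor NPR2 when it binds C-type natriuretic peptide, the product of Nppc, and it reaches the oocyte through gap junctions built from connexin 37 (Gja4) at the oocyte surface and connexin 43 (Gja1) between granulosa cells. A second line of contact runs through KIT ligand (Kitl) from granulosa cells to the receptor KIT on the oocyte, which drives oocyte growth.

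In the mouse assembly GRCm38 these protein-coding genes lie apart on 6 chromosomes. Gja4 (chr4:127311421-127314039) and Gpr3 (chr4:133209340-133212536) are on the minus strand and Npr2 (chr4:43631935-43651244) on the plus strand of the same chromosome. Nppc (chr1:86666291-86670571) is on the minus strand, and Kit (chr5:75574916-75656722), Pde3a (chr6:141249269-141507448), Gja1 (chr10:56377330-56402513), Kitl (chr10:100015630-100100416) and Adcy3 (chr12:4133103-4213525) are on the plus strand. Gja4 and Nppc have 1 annotated transcript each, and the others have 2 to 10. Gpr3 overlaps Cd164l2, Adcy3 overlaps Cenpo and Npr2 overlaps Gm12473 on the opposite strand, and Pde3a overlaps Gm28523 on the opposite strand and Gm10400 and Gm43958 on its own. Whether strand was used in the counting is not stated, so the values of these 4 genes may hold reads of their neighbours and are uncertain to that extent.

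The promoters of the receptor Gpr3 and of both connexins are shown because these 3 members held the short cAMP response element TGACG, 1 of 5 motifs searched, which is bound by transcription factors of the cAMP pathway. The sequences are the 250 bases before the gene start from RefSeq (GRCm38.p6), written on the strand of the gene, with each TGACG or its reverse complement CGTCA in capitals. The regions are chr4:133212537-133212786 (minus strand) for Gpr3, chr4:127314040-127314289 (minus strand) for Gja4 and chr10:56377050-56377299 (plus strand) for Gja1.
Gpr3: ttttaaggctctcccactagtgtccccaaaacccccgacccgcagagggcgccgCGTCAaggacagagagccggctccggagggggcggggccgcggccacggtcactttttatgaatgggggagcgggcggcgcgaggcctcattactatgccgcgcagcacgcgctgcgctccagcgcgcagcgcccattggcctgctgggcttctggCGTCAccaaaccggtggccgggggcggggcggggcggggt
Gja4: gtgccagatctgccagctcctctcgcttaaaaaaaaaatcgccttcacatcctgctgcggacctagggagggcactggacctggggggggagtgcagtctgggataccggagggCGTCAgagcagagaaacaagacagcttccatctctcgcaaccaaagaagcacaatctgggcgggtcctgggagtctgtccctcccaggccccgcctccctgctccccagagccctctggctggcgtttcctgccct
Gja1: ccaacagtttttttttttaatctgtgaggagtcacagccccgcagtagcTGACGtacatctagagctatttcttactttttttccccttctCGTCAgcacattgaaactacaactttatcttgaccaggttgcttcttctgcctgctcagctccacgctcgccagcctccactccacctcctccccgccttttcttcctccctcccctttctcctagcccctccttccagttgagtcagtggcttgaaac
The Gpr3 promoter held the element 196 and 40 bases before the start, the Gja4 promoter 136 bases before it and the Gja1 promoter 201 and 159 bases before it. The element was present in 17.8% of the 32851 promoters of this length searched on both strands. The complete element TGACGTCA, which contains the short one and occurs in 1.55% of promoters, was in none of the members. Promoter sequences were found for 8 of the 9 members, all but Pde3a. The GC box GGGCGG (32.7% of all promoters) occurred 5 times in Gpr3, 3 times in Kitl and once each in Gja4, Nppc, Kit and Adcy3. The TATA box TATAAA (12.4%) occurred once in Nppc and once in Kitl, and the E-box CANNTG (66.2%) once each in Npr2 and Gja1. No factor binding was measured, so these matches describe letters only.

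Levels are given as FPKM (fragments per kilobase of transcript, scaled to the mapped fragments of the library). Depth, read from the ratio of deposited coverage to FPKM, ranged over oocyte libraries from 0.278 to 3.40 aligned gigabases and over granulosa cell libraries from 0.335 to 1.49, so 1 FPKM stood for that many reads over each base of a gene. The 95th percentile of 329 vomeronasal receptor genes, which are silent in the ovary, served as a background level and lay at 0.132 to 7.33 FPKM in the oocyte libraries and at 0.307 to 2.90 FPKM on the granulosa side. Several libraries were poor in the RNA that their labels name. The summed FPKM of 10 oocyte markers was 1340 to 14620 in 8 oocyte libraries, but 11.4 in Young 1, 153 in Aged 1 and 53.0 and 165.9 in the 2 Aged + LRP1low libraries. In those 4 libraries 3, 7, 4 and 7 of the 10 markers passed the background, with Zp2 listed at 0 in Young 1 and Bmp15 at 0 in Aged + LRP1low 2. The repeat-like gene Gm10800 took 78.1%, 42.6%, 37.5% and 55.5% of all FPKM in them, and at most 17.4% in the other oocyte libraries. The library labelled granulosa Aged + Unsorted held 11740 FPKM of oocyte markers against 23.6 FPKM of 10 granulosa markers, and its closest library over 6036 genes was oocyte Aged + Unsorted 2 (Pearson r 0.923). Granulosa markers summed to 1992 FPKM in granulosa Young and 570.6 FPKM in Aged + LRP1high 3, to 5.30 to 88.0 FPKM in the other transplanted libraries apart from Aged + Unsorted, and to 1.14 and 1.09 FPKM in the 2 Aged libraries, where none of the 10 passed the background. Amh was listed at 0 in 7 of the 9 granulosa cell libraries.

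**Figure D1:**
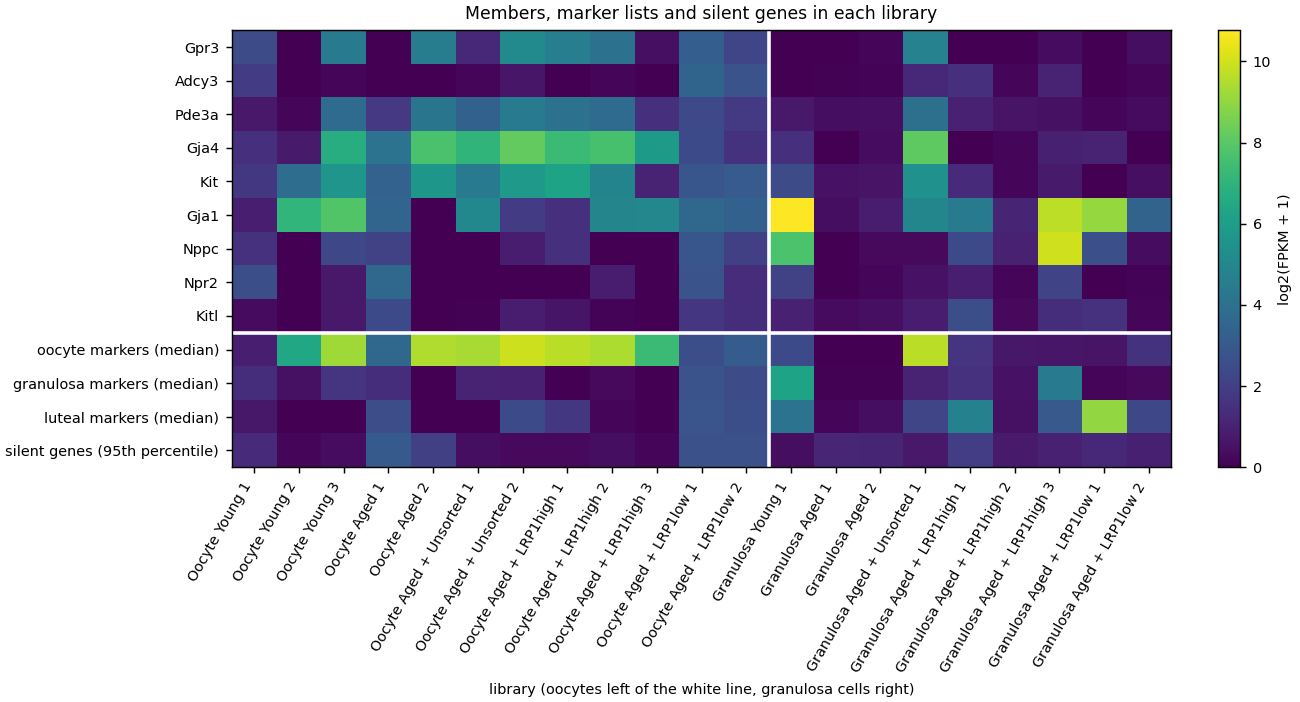
Level on the log2(FPKM + 1) scale (colour) of the 9 members, of the medians of the oocyte, granulosa and luteal marker lists and of the silent-gene background (rows) in each library (columns). The library labelled granulosa Aged + Unsorted shares the bright Gja4 and Kit cells of the oocyte libraries, and the oocyte libraries Young 1, Aged 1 and Aged + LRP1low 1 and 2 lack the bright oocyte marker row.

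Gpr3, the receptor that keeps cAMP production on, was listed at 4.72, 0 and 19.8 FPKM in the 3 Young oocyte libraries and at 0 and 21.7 FPKM in the 2 Aged ones. It reached 1.39 and 35.03 FPKM in Aged + Unsorted, 23.3, 15.3 and 0.348 FPKM in Aged + LRP1high and 8.24 and 3.81 FPKM in Aged + LRP1low. Every oocyte group held at least 1 library above 8 FPKM, and the ranges of the groups overlapped. Gpr3 passed the silent-gene level in 9 of 12 oocyte libraries. Among granulosa cell libraries it stood at 26.7 FPKM in the library labelled Aged + Unsorted and at 0 to 0.336 FPKM in the other 8, below the background in each of those.

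Adcy3, the cyclase downstream of GPR3, was listed at 2.61, 0 and 0.0998 FPKM in Young oocytes, at 0 FPKM in the 2 Aged ones and at 0.107 and 0.588 FPKM in Aged + Unsorted. Its levels were 0, 0.119 and 0 FPKM in Aged + LRP1high and 10.01 and 5.75 FPKM in Aged + LRP1low. The 2 Aged + LRP1low libraries lay above every other oocyte library, with no overlap. Their silent-gene levels were 5.38 and 5.32 FPKM, among the highest measured, and the deposited coverage of Adcy3 in them was 0.859 and 0.260 reads per base, against 0.994 in Young 1 at a lower FPKM. All 10 adenylyl cyclase genes, a family taken up after its values were seen, were above 0 in these 2 libraries, at 4.05 to 10.01 and 2.71 to 11.8 FPKM, whereas 0 to 3 of the 10 were listed at 0 in each Aged + LRP1high library. Adcy3 was the highest of the 10 in 1 of the 21 libraries, Aged + LRP1low 1, and Adcy5 or Adcy9 was the highest in 12. Granulosa cell libraries held 0 to 1.80 FPKM of Adcy3, above background in 2 of 9, Aged + Unsorted and Aged + LRP1high 3.

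Pde3a, the phosphodiesterase that ends the arrest signal, was never listed at 0. It measured 0.658, 0.0948 and 12.8 FPKM in Young oocytes and 2.50 and 17.3 FPKM in Aged ones. Its levels were 9.16 and 21.1 FPKM in Aged + Unsorted, 15.1, 12.6 and 1.72 FPKM in Aged + LRP1high and 4.23 and 2.59 FPKM in Aged + LRP1low. All 7 libraries above the silent-gene level had high oocyte markers, the 5 below included the 4 libraries poor in oocyte markers, and the groups overlapped except that both Aged + Unsorted libraries lay above both Aged + LRP1low ones. Granulosa cell libraries held 0.151 to 0.9754 FPKM, apart from 14.7 FPKM in the library labelled Aged + Unsorted.

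Gja4, which encodes the connexin of the oocyte surface, was the member with the widest oocyte range. It stood at 1.79, 0.709 and 102.5 FPKM in Young oocytes, at 16.1 and 201.6 FPKM in Aged ones and at 131.7 and 288.6 FPKM in Aged + Unsorted. It was 161.8, 198.8 and 57.8 FPKM in Aged + LRP1high and 4.31 and 2.00 FPKM in Aged + LRP1low. All 3 Aged + LRP1high libraries lay above both Aged + LRP1low libraries, where Gja4 did not pass the silent-gene level. The Young group held both the lowest oocyte value and 1 value of 102.5 FPKM, below 5 libraries of other groups. Its coverage was 157.2 to 509.5 reads per base in Aged + LRP1high and 2.22 and 0.554 in Aged + LRP1low. Gja4 has 1 transcript and no overlapping neighbour, so this coverage follows from FPKM and library depth and adds no separate evidence. In granulosa cells Gja4 was 270.4 FPKM in the library labelled Aged + Unsorted and 0 to 1.79 FPKM in the other 8, the highest of them being Young.

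Gja1, which encodes the connexin between granulosa cells, was 1744 FPKM in the Young granulosa cell library. It measured 0.302 and 0.818 FPKM in Aged, 29.4 FPKM in the library labelled Aged + Unsorted, 21.04, 1.14 and 839.1 FPKM in Aged + LRP1high and 534.0 and 9.89 FPKM in Aged + LRP1low. Both Aged libraries lay below all the others and below the background, and the transplanted groups overlapped widely. In oocytes Gja1 was 0.892, 134.9 and 227.6 FPKM in Young, 10.3 and 0 FPKM in Aged and 31.4 and 2.80 FPKM in Aged + Unsorted. It was 1.76, 29.2 and 31.1 FPKM in Aged + LRP1high and 11.1 and 9.07 FPKM in Aged + LRP1low. The 2 highest oocyte values were Young 2 and Young 3, which held 94.9 and 43.8 FPKM of summed granulosa markers against 0.259 to 60.03 FPKM in the other oocyte libraries. The part of granulosa cell RNA in these values was not tested.

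**Figure D2:**
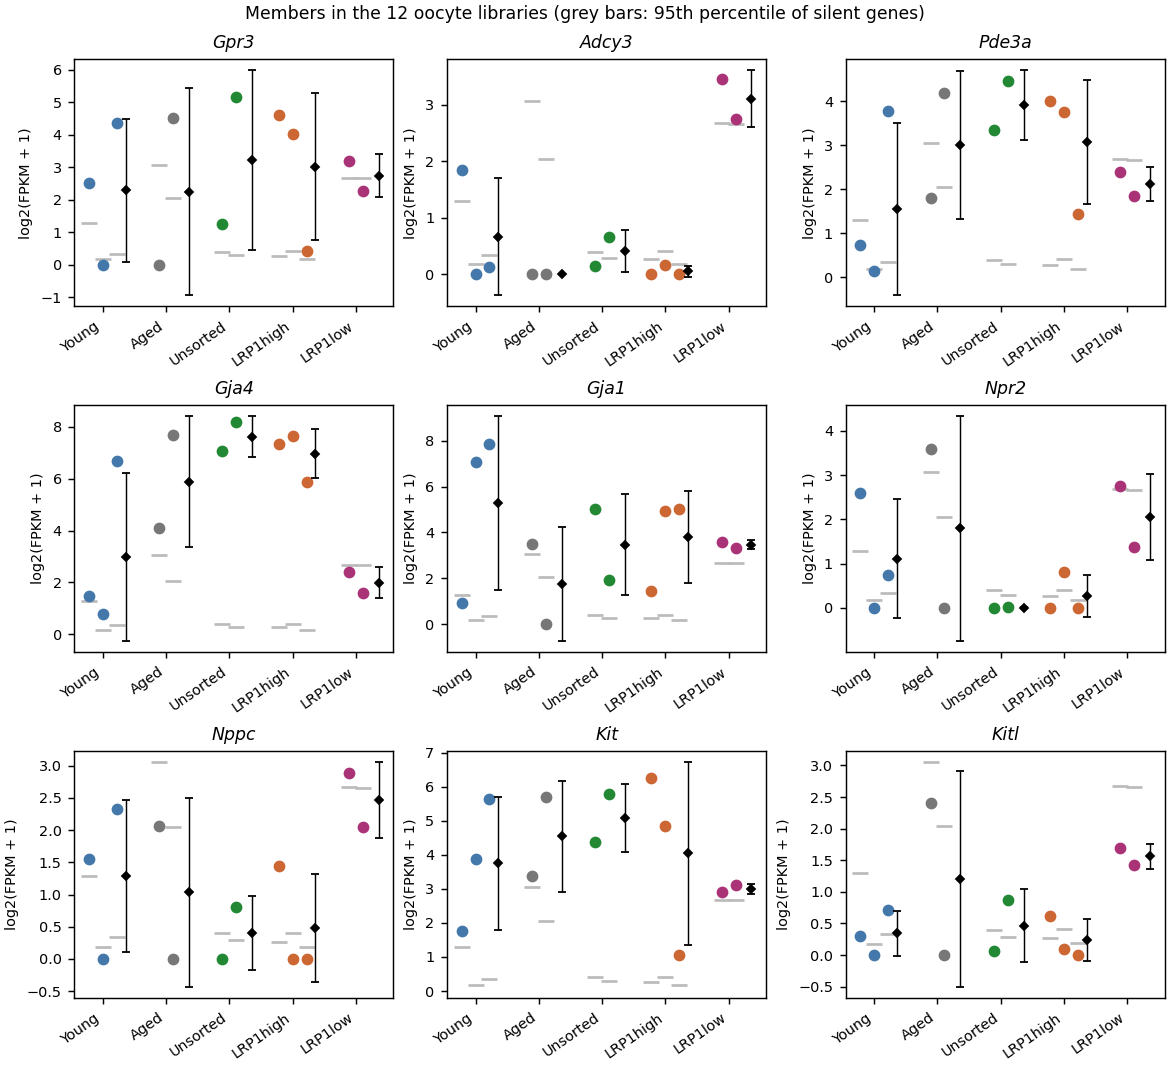
Level of each member, as log2(FPKM + 1), in the 12 oocyte libraries by group (coloured points), with the group mean and SD on that scale (black diamonds with bars) and the silent-gene 95th percentile of each library (grey bars). In the 2 Aged + LRP1low libraries, where the grey bars are also high, Adcy3 lay above all other oocyte libraries and Gja4 lay below the grey bars.

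Nppc, which encodes C-type natriuretic peptide, was 207.8 FPKM in Young granulosa cells and 0 and 0.198 FPKM in Aged ones. It was 0.194 FPKM in the library labelled Aged + Unsorted, 4.33, 0.980 and 1027 FPKM in Aged + LRP1high and 5.16 and 0.282 FPKM in Aged + LRP1low. A single library, Aged + LRP1high 3, carried nearly all of the Nppc of its group, and the same library had the highest granulosa marker sum after Young. In oocytes Nppc ran from 0 to 6.41 FPKM, was listed at 0 in 5 of 12 libraries and was highest in Aged + LRP1low 1.

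Npr2, the receptor that turns the peptide into cGMP, was low in every library. In granulosa cells it measured 3.30 FPKM in Young, 0 and 0.105 FPKM in Aged and 0.455 FPKM in the library labelled Aged + Unsorted. It was 0.870, 0.143 and 3.60 FPKM in Aged + LRP1high and 0 and 0.0808 FPKM in Aged + LRP1low. The 2 values above background, Young and Aged + LRP1high 3, came from the 2 libraries richest in granulosa markers. The 3 Young oocyte libraries held 5.07, 0 and 0.662 FPKM, the 2 Aged ones 11.02 and 0 FPKM and the 2 Aged + Unsorted ones 0 and 0.0110 FPKM. Aged + LRP1high oocytes held 0, 0.758 and 0 FPKM, and Aged + LRP1low oocytes 5.71 and 1.60 FPKM. The highest oocyte values were thus in libraries poor in oocyte markers, Aged 1, Aged + LRP1low 1 and Young 1.

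**Figure D3:**
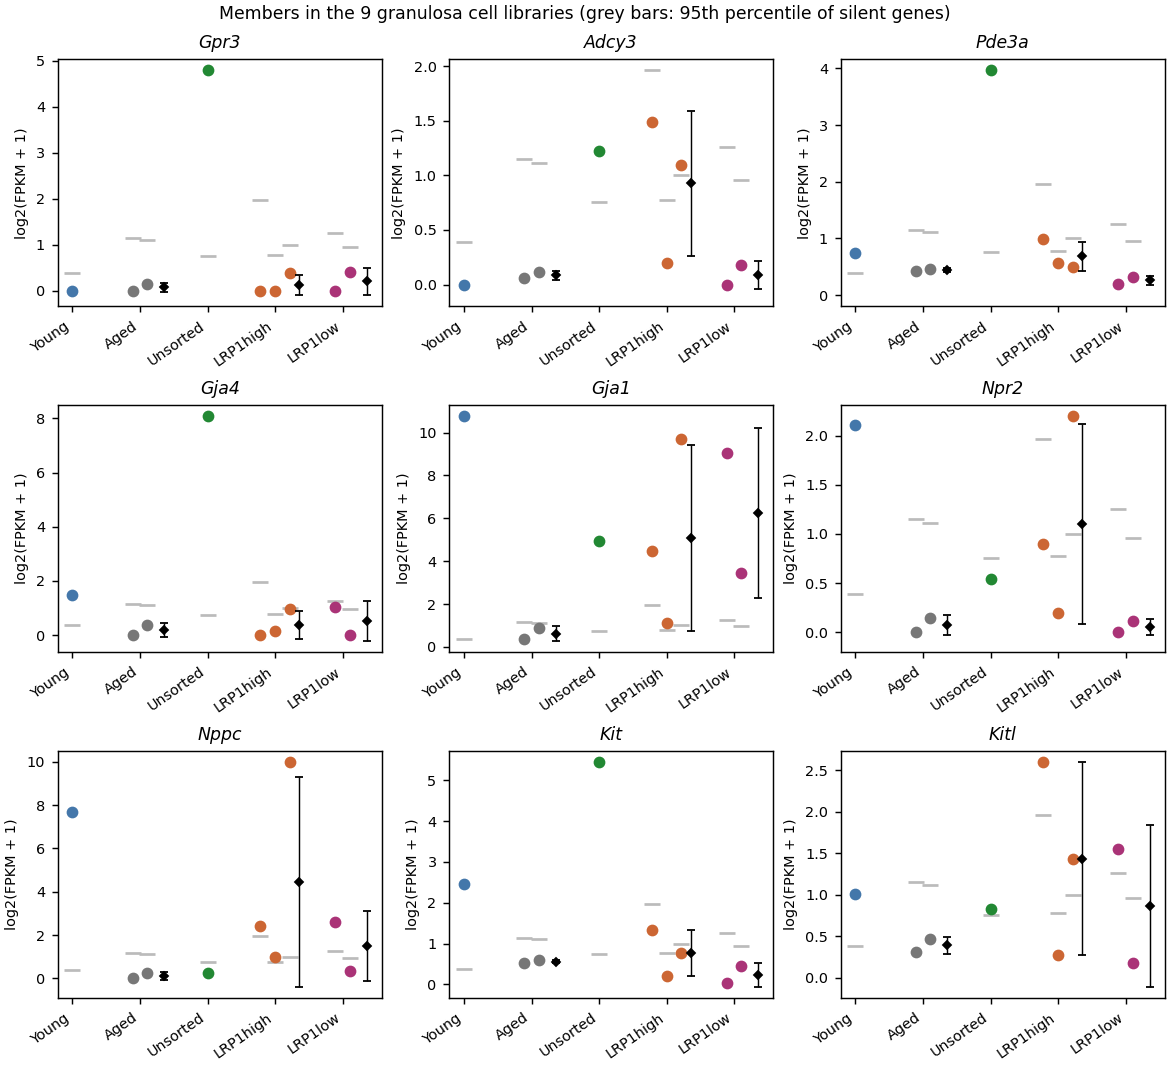
Level of each member, as log2(FPKM + 1), in the 9 granulosa cell libraries by group (coloured points), with the mean and SD of groups of more than 1 library (black diamonds with bars) and the silent-gene 95th percentile of each library (grey bars). Within the Aged + LRP1high group Gja1 spread from 1.14 to 839.1 FPKM and Nppc from 0.980 to 1027 FPKM, and Gpr3, Pde3a, Gja4 and Kit were highest in the library labelled Aged + Unsorted.

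Kit, the receptor for the granulosa cell ligand, was the member that passed the silent-gene level in all 12 oocyte libraries. It measured 2.36, 13.6 and 48.6 FPKM in Young, 9.45 and 50.9 FPKM in Aged and 19.8 and 53.8 FPKM in Aged + Unsorted. It was 74.9, 27.6 and 1.07 FPKM in Aged + LRP1high and 6.45 and 7.64 FPKM in Aged + LRP1low. Both Aged + LRP1low libraries lay below both Aged ones, while the Aged + LRP1high group held both the highest and the lowest oocyte value. In granulosa cells Kit was 42.9 FPKM in the library labelled Aged + Unsorted, 4.55 FPKM in Young and at most 1.504 FPKM in the other 7.

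Kitl, which encodes the ligand, stayed at or below 5.07 FPKM in every library. Its granulosa levels were 1.01 FPKM in Young, 0.243 and 0.378 FPKM in Aged, 0.767 FPKM in the library labelled Aged + Unsorted, 5.07, 0.209 and 1.69 FPKM in Aged + LRP1high and 1.93 and 0.130 FPKM in Aged + LRP1low. It passed the background in 5 of 9 granulosa cell libraries. Oocyte libraries held 0 to 4.32 FPKM, the highest in Aged 1, and 3 of 12 passed the background.

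FPKM is scaled per length, so the members could also be ordered within a library. Gja1 was the highest of the 9 in 10 of 21 libraries and Gja4 in 8, while Npr2, Kit and Nppc each led in 1. The lead of Kit, in granulosa Aged 1, and 1 of those of Gja1, in granulosa Aged 2, were among values all below the silent-gene level. The order Gja4 over Kit over Gpr3 over Pde3a was found in 6 libraries, namely oocyte Young 3, Aged 2, Aged + Unsorted 2, Aged + LRP1high 1 and 2 and the library labelled granulosa Aged + Unsorted. In 9 libraries the 10 oocyte markers summed to more than 1000 FPKM, a limit set after the values were seen. There Gja4 came to 1.06% to 2.40% of the marker sum in 8 and to 0.0529% in oocyte Young 2. Gpr3 was listed at 0 in that library as well, against 0.00991% to 0.252% in the other 8. Its share was also low in Aged + LRP1high 3, at 0.00991%, and in oocyte Aged + Unsorted 1, at 0.0171%. Pde3a came to 0.00708% of the marker sum in oocyte Young 2 against 0.0489% to 0.191% in the other 8, while Kit was at its highest share there, 1.01%. Oocyte Young 2 thus carried the oocyte markers and Kit with little of the 3 other oocyte-side members. Kit had its lowest share, 0.0304%, in Aged + LRP1high 3. These libraries also held the fewest genes above 1 FPKM of all oocyte libraries, 3135 in Young 2 and 4525 in Aged + LRP1high 3. The part of such sparse detection in the low shares was not tested.

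**Figure D4:**
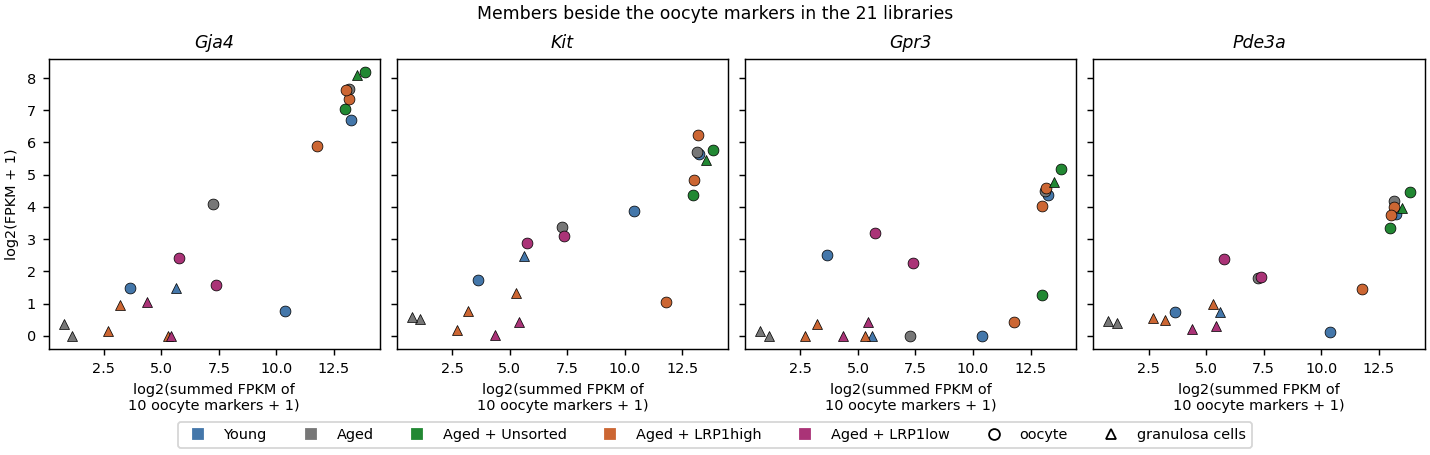
Level of Gja4, Kit, Gpr3 and Pde3a, as log2(FPKM + 1), against log2 of the summed FPKM of 10 oocyte markers plus 1, for the 21 libraries, with colours for groups and circles for oocytes and triangles for granulosa cells. The triangle at the far right is the library labelled granulosa Aged + Unsorted, and the blue circle with a marker sum of 1340 FPKM and little Gja4 is oocyte Young 2.

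Changes were tested with limma on log2(FPKM + 1) over all genes with a mean of at least 1 FPKM, and calls needed more than a 1.5-fold difference together with a Benjamini-Hochberg adjusted p under 0.05. Changes are on this log2 scale and understate the fold of low genes. In tests on oocytes 8 members passed the filter, all but Kitl, and in granulosa cells 7 did, all but Adcy3 and Npr2. RNA was measured in bulk, so fewer cells of a type and less RNA per cell cannot be told apart. The Aged libraries entered 4 of the 5 oocyte comparisons, which are therefore not independent of each other.

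Ageing was addressed by Aged against Young oocytes, where 0 of the 8 members were called and 0 passed an unadjusted p of 0.05 (0.0964% of the 28004 genes tested were called). The largest shifts were in the connexins. Gja4 was 2.90 higher in Aged (SE 1.60, 95% CI -0.62 to 6.42, limma adjusted p = 0.515) and Gja1 differed by -3.53 (SE 1.98, CI -7.89 to 0.82, adjusted p = 0.515), neither beyond the spread of the libraries. Without Young 1 and Aged 1, the libraries poor in oocyte markers, Gja1 was at -7.46 (SE 1.79, adjusted p = 0.0615), still not called, with 1 Aged library at 0 against 134.9 and 227.6 FPKM in Young. The difference of Gpr3 was -0.046 with an interval from -3.97 to 3.88, so changes of several-fold either way were not detectable at this spread. The median change of the 8 members was 0.32, beside 0.94 for all genes tested.

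Transplantation of unsorted cells was compared with Aged oocytes, and 0 of the 8 members were called (0% of 28004 genes called, with 476 genes higher and 1971 lower at an unadjusted p of 0.05, none of them members). Gja4 averaged 210.2 ± 111.0 FPKM (SD, n = 2) against 108.9 ± 131.2 FPKM (n = 2) in Aged, a log2 change of 1.74 (SE 1.75, CI -2.13 to 5.60, limma adjusted p = 0.567). Npr2 had the lowest adjusted p, 0.436, at a log2 change of -1.79 (SE 1.18). Without Aged 2, Npr2 alone was called in this comparison, and the count over all genes went from 0 to 10678.

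After Aged + LRP1high against Aged oocytes, 0 of the 8 members were called and 0 passed an unadjusted p of 0.05 (0.771% of genes called). Gja4 averaged 139.5 ± 73.1 FPKM (SD, n = 3) against 108.9 ± 131.2 FPKM (n = 2), a log2 change of 1.08 (SE 1.60, CI -2.45 to 4.60, limma adjusted p = 0.714). Pde3a differed by 0.072 (CI -2.58 to 2.72) and Adcy3 by 0.054 (CI -1.47 to 1.58). The median change of the members was 0.063, beside -1.05 for all genes tested. Without Aged 2, Npr2 alone was called, and the genes called in all rose from 216 to 11409.

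Aged + LRP1low against Aged oocytes gave no called member either (3.17% of genes called), with 2 members under an unadjusted p of 0.05. Of the 28004 genes tested, 3695 were higher and 267 lower at that limit. Adcy3, given as 0 FPKM for either Aged library against 10.01 and 5.75 FPKM in Aged + LRP1low, had a log2 change of 3.11 (SE 0.758, CI 1.44 to 4.78, limma adjusted p = 0.0528). Gja4 was at -3.89 (SE 1.75, CI -7.75 to -0.026, adjusted p = 0.349), and Kit at -1.54 (SE 1.64, adjusted p = 0.728). These 3 of 8 members had groups that did not overlap, Adcy3 higher and Gja4 and Kit lower in Aged + LRP1low, as did 36.6% of all genes tested. Leaving out Aged 1 or Aged 2 brought the call of Adcy3 but raised the genes called in all from 887 to 5251 and 3010. The summed oocyte markers of these 4 libraries were 153 and 9051 FPKM in Aged and 53.0 and 165.9 FPKM in Aged + LRP1low.

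The difference between the sorted fractions was addressed by Aged + LRP1high against Aged + LRP1low oocytes, where Gja4 was higher and Adcy3 lower after LRP1high cells. Gja4 averaged 139.5 ± 73.1 FPKM (SD, n = 3) against 3.15 ± 1.63 FPKM (SD, n = 2), a log2 change of 4.96 (SE 1.60, CI 1.44 to 8.49, limma adjusted p = 0.0453). Adcy3 averaged 0.0395 ± 0.0684 FPKM against 7.88 ± 3.01 FPKM, a log2 change of -3.05 (SE 0.692, CI -4.58 to -1.53, adjusted p = 0.0220). These were 2 of 8 members called, against 26.0% of the 28004 genes tested, of which 340 were higher and 6951 lower. Nppc was at -1.99 (SE 0.905, adjusted p = 0.102) and Npr2 at -1.79 (SE 1.07, adjusted p = 0.195), and neither passed. Gpr3 (0.28, CI -3.64 to 4.20), Gja1 (0.33, CI -4.02 to 4.69), Pde3a (0.96, CI -1.69 to 3.60) and Kit (1.04, CI -2.25 to 4.33) had intervals on both sides of 0. Groups did not overlap for 4 of the 8 members, Gja4 higher and Adcy3, Npr2 and Nppc lower in Aged + LRP1high, as for 69.4% of all genes tested.

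Both calls stood beside a difference in what the libraries held. Oocyte markers summed to 3507 to 9246 FPKM in Aged + LRP1high, with all 10 above background, and to 53.0 and 165.9 FPKM in Aged + LRP1low, where their median change was 5.89 and 3 of 10 were called. Granulosa markers summed to 0.259 to 16.3 FPKM in Aged + LRP1high and to 54.1 and 60.03 FPKM in Aged + LRP1low. Their medians in Aged + LRP1low 1 and 2 were 5.85 and 4.58 FPKM, beside silent-gene levels of 5.38 and 5.32 FPKM. Only 7 and 3 of the 10 passed that level there. Stromal and immune markers were raised as well, at 33.4 to 38.8 and 40.2 to 47.5 FPKM in Aged + LRP1low. In Aged + LRP1high these lists summed to at most 1.25 and 1.44 FPKM. The repeat-like gene Gm10800 took 0.039%, 1.52% and 0.974% of all FPKM in Aged + LRP1high and 37.5% and 55.5% in Aged + LRP1low. Genes above 1 FPKM numbered 4525 to 11026 in Aged + LRP1high and 47920 and 38934 in Aged + LRP1low, and all genes tested had a median change of -1.89. Under quantile normalization, which set that median to -0.0084, the split of called genes was 148 higher and 556 lower, Gja4 was at 5.57 (limma adjusted p = 0.0487) and Adcy3 at -1.92 (adjusted p = 0.110). After rescaling without Gm10800 and 2 similar genes, Gja4 was at 4.69 (limma adjusted p = 0.0379) and Adcy3 at -4.88 (adjusted p = 0.0112). The genes called then split into 421 higher and 23892 lower, at a median change of -3.17. With the mean oocyte marker level as a covariate, Gja4 was at 1.60 (SE 1.52, adjusted p = 0.618) and Adcy3 at -2.19 (SE 0.737, adjusted p = 0.193), and neither was called. Leaving out any 1 of the 5 libraries left neither member called, although the changes stayed near those above, at 4.55 or more for Gja4 (limma adjusted p 0.0874 to 0.242) and -3.41 to -3.03 for Adcy3 (adjusted p 0.0605 to 0.212), and without Aged + LRP1low 1 Adcy3 did not pass the filter.

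**Figure D5:**
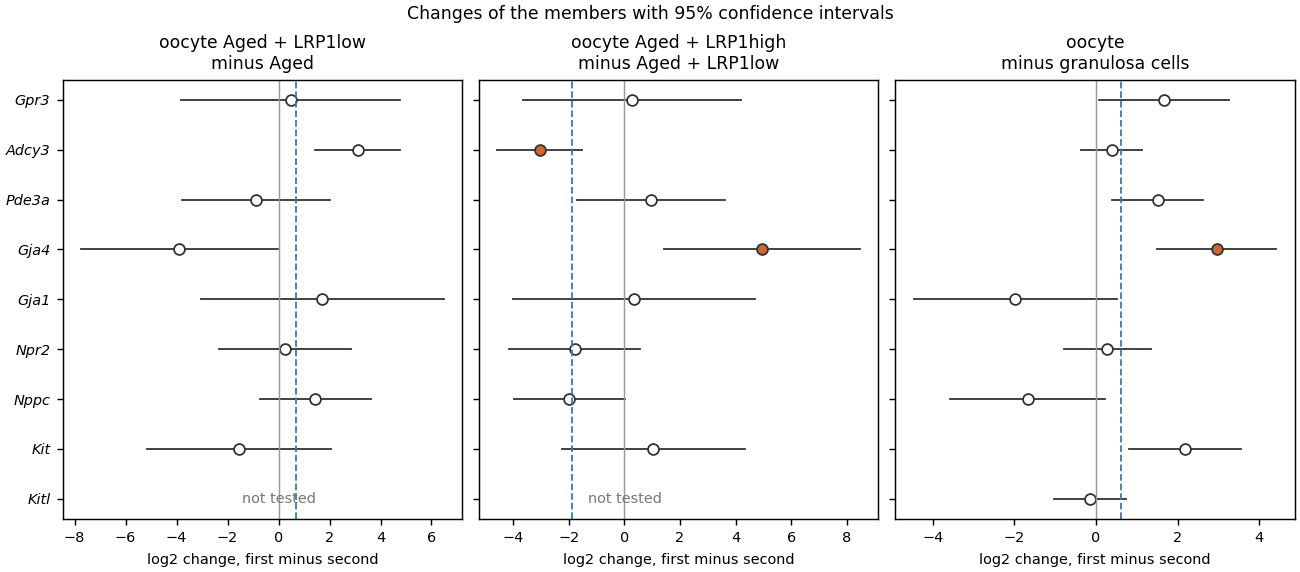
Log2 change with its 95% confidence interval for each member in 3 comparisons (points, filled where called, with the first group minus the second), with the median change of all genes tested as a dashed line. Gja4 and Adcy3 were called in Aged + LRP1high minus Aged + LRP1low oocytes and Gja4 in oocytes minus granulosa cells, and Kitl was not tested in the oocyte comparisons.

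In granulosa cells the Young and Aged + Unsorted groups had 1 library each and were not compared. Aged + LRP1high against Aged gave 0 of 7 members called and 0 at an unadjusted p of 0.05 (0% of 13002 genes called, with 1039 higher and 67 lower at an unadjusted p of 0.05). Gja1 averaged 287.1 ± 478.2 FPKM (SD, n = 3) against 0.560 ± 0.365 FPKM (SD, n = 2), a log2 change of 4.47 (SE 2.78, CI -2.37 to 11.3, limma adjusted p = 0.460). Nppc averaged 343.9 ± 591.1 FPKM against 0.0990 ± 0.140 FPKM, a log2 change of 4.34 (SE 2.67, CI -2.24 to 10.9, adjusted p = 0.460). The SD exceeded the mean in Aged + LRP1high for both, because Aged + LRP1high 3 stood far above the other 2 libraries. All 7 changes were above 0, beside a median of 0.89 for all genes, but under quantile normalization 5 of the 7 were below 0 (Gpr3 -0.50, Pde3a -1.13, Gja4 -0.51, Kit -1.49 and Kitl -0.31), none of them called. On the FPKM scale groups did not overlap for Pde3a, Gja1 and Nppc, all higher, as for 51.8% of all genes. In the 2 Aged libraries no member passed the silent-gene level and Gm10800, a repeat-like gene, took 81.9% and 83.3% of all FPKM, against 73.4%, 86.6% and 61.0% in the 3 Aged + LRP1high libraries. After rescaling without this and 2 similar genes, Gja1 was at 5.08 (SE 2.01, limma adjusted p = 0.429) and Nppc at 6.11 (SE 2.13, adjusted p = 0.424).

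Aged + LRP1low against Aged granulosa cells gave 0 of 7 called and 0 at an unadjusted p of 0.05 (0% of 13002 genes called, 397 higher and 96 lower at an unadjusted p of 0.05). Gja1 was at 5.63 (SE 3.04, CI -1.86 to 13.1, limma adjusted p = 0.904) with 534.0 and 9.89 FPKM against 0.302 and 0.818 FPKM. Aged + LRP1high against Aged + LRP1low gave 0 of 7 called and 0 at an unadjusted p of 0.05 (0% of genes, 538 higher and 131 lower at an unadjusted p of 0.05). Nppc was at 2.98 (SE 2.67, CI -3.60 to 9.56, adjusted p = 0.645) and Gja1 at -1.16 (SE 2.78, CI -8.00 to 5.68, adjusted p = 0.845). The steroidogenic luteal markers also differed within these groups, with sums of 7.50 to 1788 FPKM in Aged + LRP1high and 73.6 and 5582 FPKM in Aged + LRP1low, and their part in the spread of the members was not tested.

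The members act on one side or the other of the oocyte and granulosa cell contact, so the mean of the 5 oocyte groups was also compared with the mean of the 5 granulosa cell groups over all 21 libraries. Gja4 was higher in oocytes by 2.96 (SE 0.694, CI 1.49 to 4.42, limma adjusted p = 0.0349), 1 of 9 members called against 3.00% of 21767 genes. Kit (2.19, SE 0.648, adjusted p = 0.0733), Pde3a (1.51, SE 0.528, adjusted p = 0.124) and Gpr3 (1.66, SE 0.758, adjusted p = 0.218) passed an unadjusted p of 0.05 but were not called. Of the 21767 genes tested, 4395 were higher and 268 lower in oocytes at that limit. Nppc was at -1.67 (SE 0.900, adjusted p = 0.275) and Gja1 at -1.98 (SE 1.18, adjusted p = 0.309). Adcy3 (0.38), Npr2 (0.27) and Kitl (-0.14) had adjusted p of 0.467 to 0.826. Called genes of the whole table split into 634 higher and 20 lower, and into 42 higher and 260 lower under quantile normalization, where Gja4 was at 1.75 (adjusted p = 0.124).

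The number of called members depended on the library labelled granulosa Aged + Unsorted, whose marker profile was that of oocytes. Without it, Gja4 was higher in oocytes by 4.45 (limma adjusted p = 0.00136), Kit by 3.08 (adjusted p = 0.00616), Pde3a by 2.197 (adjusted p = 0.0128) and Gpr3 by 2.60 (adjusted p = 0.0332), so that 4 of 9 members were called, with 3405 of 22347 genes in all. The library left out was the only one of its group, so the granulosa mean then lacked Aged + Unsorted while the oocyte mean kept it. This library was singled out by its oocyte markers, and these 4 members are genes of the oocyte side. The larger differences without it are therefore a description and no independent evidence of direction. The same holds for leaving out the 4 oocyte libraries poor in oocyte markers as well, where the changes of these 4 members were 2.75 to 5.85 and 4093 of 12705 genes were called. Leaving out other single libraries gave 0 to 2 called members, with Gja4 and Kit called without oocyte Young 1, Aged 1 or Aged + LRP1high 3 and Gja4 no longer called without any of 13 others.

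Whether a fraction changed oocytes and granulosa cells unequally was tested by interaction. For the change after LRP1high cells, 0 of 9 members were called (0% of 21767 genes, with 48 higher and 3445 lower at an unadjusted p of 0.05), and the largest differences were Nppc at -4.89 (SE 2.48, limma adjusted p = 0.317) and Npr2 at -2.55 (SE 1.39, adjusted p = 0.321). Without oocyte Aged 2, Npr2 and Kitl were called, with 7800 genes in all. For the change after LRP1low cells, 0 of 9 were called (0% of genes, 857 higher and 538 lower at an unadjusted p of 0.05), and Adcy3, at 3.10 (SE 1.06, adjusted p = 0.541), was the 1 member with an unadjusted p under 0.05.

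The wider pathway was described through 46 further genes in 5 lists. In Aged + LRP1high against Aged + LRP1low oocytes, 2 of 13 cAMP genes were called (26.0% of all genes were), with the kinase subunit Prkar2a higher (3.67, limma adjusted p = 0.0447) and the phosphodiesterase Pde4d lower (-3.50, adjusted p = 0.0365). Of the cGMP genes, 0 were higher and 3 of the 8 tested were lower, namely the clearance receptor Npr3 (-3.32, adjusted p = 0.0297), the GTP synthesis enzyme Impdh1 (-3.02, adjusted p = 0.0478) and the cGMP phosphodiesterase Pde5a (-2.32, adjusted p = 0.0379), the last named after its value was seen. Of 10 contact genes, the connexins Gjc1 (-2.89, adjusted p = 0.0290) and Gja5 (-2.70, adjusted p = 0.0220) were lower. Several of these lower genes were near the silent-gene level of Aged + LRP1low 1 and 2, which was 5.38 and 5.32 FPKM. There Gjc1 was at 4.81 and 9.42, Gja5 at 7.55 and 5.21 and Pde5a at 5.07 and 6.75 FPKM, each with 1 library below it. Impdh1, at 11.8 and 5.80 FPKM, was above it in both. Foxo3, the transcription factor restrained by KIT signalling in the oocyte, was higher (6.995, SE 1.79, adjusted p = 0.0286) and the only called gene of the 8 in that list, and 0 of 3 LH and EGF genes were called. The median changes were 0.26 for cAMP, -2.23 for cGMP, -1.33 for contact, 0.16 for KIT signalling and -1.80 for LH and EGF genes, beside -1.89 for all genes. These calls were lost with a pseudocount of 0.1, a replicate block, the oocyte marker covariate or without any 1 library other than Aged + LRP1low 1, since no gene of the table was then called by limma.

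Foxo3 was listed at 634.3, 757.2 and 1233 FPKM in Aged + LRP1high oocytes and at 9.11 and 3.30 FPKM in Aged + LRP1low ones. Young oocytes held 4.96, 1211 and 776.4 FPKM and Aged ones 68.6 and 172.9 FPKM, so its 3 lowest oocyte values, in Young 1 and both Aged + LRP1low libraries, were all in libraries poor in oocyte markers. Npr3, by contrast, was at 0 to 0.286 FPKM in all Aged + LRP1high and Aged + Unsorted oocyte libraries and at 9.07 and 10.5 FPKM in Aged + LRP1low, with 10.8 FPKM in Aged 1. Between cell types, Prkar2a (2.38, limma adjusted p = 0.0314), the meiotic kinase Wee2 (2.88, adjusted p = 0.0314) and Foxo3 (3.47, adjusted p = 0.0364) were higher in oocytes. These were 2 of 13 cAMP and 1 of 8 KIT signalling genes, and no gene of the cGMP (8 tested), contact (9 tested) or LH and EGF (2 tested) lists was called. In the other comparisons no gene of the 5 lists was called.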

How the data were processed

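RNA of 12 oocyte and 9 granulosa cell libraries was sequenced. The methods describe Smart-seq2, while the labels name a KAPA stranded kit. The authors aligned reads with HISAT2 2.2.1 and deposited gene tables from StringTie 1.3.3b with coverage signal, FPKM and TPM. The processing notes name mm9, but gene identifiers and positions are those of GENCODE on GRCm38. From 4 to 21 repeated identifiers a file were summed. Groups came from the labels.

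FPKM was tested with limma 3.58.1 (lmFit and eBayes) in R 4.3.3 as log2(FPKM + 1), with a mean FPKM of at least 1, all groups of a cell type in 1 model, and all 21 libraries for cell type contrasts and interactions. The filter kept 28004, 13002 and 21767 genes. Calls needed a fold over 1.5 and an adjusted p under 0.05. The fit was run on simulated data with large planted changes and less noise than these libraries. That run does not show what could be detected at their spread. FPKM gives no counts, so no counting intervals were made. By the rule for names, all 9 members, the called genes of 5 pathway lists with the 2 largest changes each way and the 3 genes most like each member are named. The members, lists and tests were chosen with earlier results of these data known. Other tables of the study were not used. Figures and descriptions used Python 3.11.15 and pandas 2.3.3.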

Additional observations from a re-analysis of the deposited data

How the results depend on the processing

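Counts of called members were recomputed under 182 alternatives over 11 comparisons, of which 134 left the count within 1.5 times, 48 moved it and 0 reversed a call. Aged + LRP1high against Aged + LRP1low oocytes went from 2 members to 0 with a pseudocount of 0.1, a replicate block or the oocyte marker covariate, to 1 (Gja4) under quantile normalization, to 4 (with Npr2 and Nppc) when only these groups were fitted, and to 0 (range 0 to 0) without any 1 library. Its genes called in all went from 7291 to 0, 0, 0, 704 and 24262. Oocytes against granulosa cells went from 1 member to 0 without the filter, under quantile normalization, with trend and robust settings or with a replicate block, to 3 with TPM (Pde3a, Gja4 and Kit), to 4 without adjustment and to 4 without the doubtful libraries, with 0 to 4 when single libraries were left out. Its genes called in all went from 654 to 887, 302, 0, 80, 2118, 4663 and 4093. Aged + LRP1low against Aged oocytes went from 0 to 1 (Adcy3) without the filter, with TPM, with trend and robust settings, after rescaling without 3 repeat-like genes and without the doubtful libraries, to 2 without adjustment, and to 0 to 1 without single libraries. Its genes called in all went from 887 to 11806 without the filter, 7488 with TPM and 1330 with trend and robust settings. They went to 9499 after rescaling and to 3962 without adjustment. The LRP1low interaction went from 0 to 1 (Adcy3) without the filter, with TPM or without adjustment. Its genes called in all went from 0 to 7287, 1598 and 1395. Leaving out single libraries gave 0 to 1 for Aged + Unsorted and for Aged + LRP1high against Aged oocytes and 0 to 2 for the LRP1high interaction. Where this left 1 library in a group, the fit assumed that it varies like the other groups. Aged against Young oocytes and the 3 granulosa comparisons stayed at 0 under the alternatives run. Of 1482 member changes compared, 147 had another sign and were uncalled. The causes were not tested, beyond the smaller or larger sets of libraries and genes by construction.

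Deviations of same-numbered libraries from their group means had r over 0.1 in 4 of 21 oocyte pairs and 1 of 6 granulosa pairs. The range was -0.406 to 0.478, highest for oocyte Young 1 with Aged 1. In groups of 2 libraries the deviations mirror each other, so these pairs are not separate tests. The numbers were not taken as pairs, and the replicate block changed no count other than those above. Rescaling and leaving out doubtful libraries were chosen after seeing the data. In oocyte comparisons the doubtful libraries were Young 1 and Aged 1 only. Aged + LRP1low against Aged thus kept both marker-poor Aged + LRP1low libraries, set against Aged 2 alone. In oocytes against granulosa cells both Aged + LRP1low oocyte libraries and the library labelled granulosa Aged + Unsorted were left out as well. The setting was not run for Aged + LRP1high against Aged + LRP1low, where removing both Aged + LRP1low libraries would leave none. Low coverage per FPKM limits values near the silent-gene level.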

Other observations

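Connexins, taken up as a family after their values were seen, were led by the 2 members in most libraries. Of 20 connexin genes, Gja1 had the highest FPKM in 9 of 21 libraries and Gja4 in 8, with Gjc1 highest in 2 and Gjd3 and Gjc3 in 1 each. In oocyte Young 2, where Gja4 was 0.709 FPKM, Gja1 at 134.9 FPKM and Gja3, a connexin best known from the lens, at 9.33 FPKM were the 2 highest, and 17 of the 20 were listed at 0. In oocyte Aged + LRP1low 2 the highest was Gjc1 at 9.42 FPKM, none of the 20 was listed at 0 and 3 passed the silent-gene level.

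The genes whose levels followed each member most closely were found by Pearson correlation of log2(FPKM + 1) over the 21 libraries among 6036 genes with a mean of at least 5 FPKM. These correlations describe the libraries, which differ in depth, background and oocyte RNA, and carry no test. Gja4 was closest to E330011O21Rik (r 0.987), Hmces (0.979) and Cpsf4l (0.978), Pde3a to A530040E14Rik (0.983), Elof1 (0.982) and Borcs5 (0.981), Kit to Cnot11 (0.967), Slc25a15 (0.967) and Nuf2 (0.963), and Gpr3 to 1110020A21Rik (0.953), Tmem171 (0.951) and Ltc4s (0.950). On the granulosa side, Nppc was closest to Mgat2 (0.932), Rcn1 (0.916) and Crim1 (0.893), Gja1 to Notch2 (0.882), Ggact (0.868) and Gm9385 (0.859), and Npr2 to Zfp385b (0.876), Wt1 (0.835) and Rufy3 (0.835). Kitl (Birc2 0.818, Mir100hg 0.798 and Pisd-ps1 0.792) and Adcy3 (Mir6546 0.790, Gm7807 0.764 and Gm21112 0.753) had the lowest best correlations of the 9.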
